A study of Mus musculus with 12 samples.

Results

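The imprinted genes described here are H19, Igf2, Igf2r, Cdkn1c, Peg3, Plagl1, Meg3, Impact, Snrpn and Grb10, taken as every array probe set that the annotation gives to 1 of these genes alone. This rule found probe sets for 9 of the 10 genes, of 18193 genes on the arrays. The matching used no measured value, but the genes were chosen with earlier results of these data known. The 9 genes have 31 of 34945 single-gene probe sets. The study placed 12 samples on mouse Affymetrix 430 2.0 arrays, 3 in each of 4 groups, to ask what loss of MBD2 does in T-cell acute lymphoblastic leukaemia (T-ALL) driven by Notch1. The groups were T-ALL cells with MBD2 deleted (MBD2-/-), T-ALL cells wild type for MBD2 (MBD2+/+), CD4+CD8+ double-positive (DP) thymocytes with MBD2 deleted and DP thymocytes wild type for MBD2. The leukaemia cells were GFP+ cells sorted from the bone marrow of transplanted mice when over 50% of blood leukocytes were GFP+, and the thymocytes were sorted from steady-state mice that had no leukaemia. The labels give no age, sex, strain or Notch1 construct, and do not say whether replicates share a litter, a transplant or a day, so the p-values cover the spread among these arrays, which may be technical.

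An imprinted gene is transcribed mainly from the copy inherited from 1 parent, because the copies carry different DNA methylation at an imprinting control region set in the germ line. MBD2 is a protein that binds methylated CG dinucleotides and recruits the NuRD repressor complex. Several imprinted genes act on growth: Igf2 is a growth factor, Igf2r removes it, Grb10 dampens insulin-type receptors, and Cdkn1c stops the cell cycle. The arrays measure total transcript, so they do not show which parental copy was read.

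RefSeq (build GRCm38.p6) gave promoter windows for 7 of the 10 genes, and none was used for H19, Cdkn1c and Impact. The 250 bases before the first start of Igf2r, Plagl1 and Meg3 are printed because these genes were either above the controls on every array or passed a test below. Capitals mark CG, the dinucleotide whose methylated form MBD2 binds, which reads the same on both strands.
Igf2r, chr17:12769707-12769956, minus strand: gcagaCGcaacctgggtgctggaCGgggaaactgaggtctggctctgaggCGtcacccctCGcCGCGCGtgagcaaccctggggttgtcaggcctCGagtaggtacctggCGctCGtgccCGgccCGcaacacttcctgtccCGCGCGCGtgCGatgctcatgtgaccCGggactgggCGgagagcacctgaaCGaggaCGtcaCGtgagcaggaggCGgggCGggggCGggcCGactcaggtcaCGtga
Plagl1, chr10:13090582-13090831, plus strand: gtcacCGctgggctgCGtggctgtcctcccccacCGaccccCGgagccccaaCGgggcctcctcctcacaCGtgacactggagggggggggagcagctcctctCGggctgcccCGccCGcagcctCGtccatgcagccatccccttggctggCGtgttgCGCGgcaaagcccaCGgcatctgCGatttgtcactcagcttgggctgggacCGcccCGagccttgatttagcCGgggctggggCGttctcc
Meg3, chr12:109540746-109540995, plus strand: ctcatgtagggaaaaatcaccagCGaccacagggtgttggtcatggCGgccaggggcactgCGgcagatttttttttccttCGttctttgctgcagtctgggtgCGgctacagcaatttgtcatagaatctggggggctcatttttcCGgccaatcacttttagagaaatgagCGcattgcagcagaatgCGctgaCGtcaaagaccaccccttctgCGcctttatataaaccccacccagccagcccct
The Igf2r window held 27 CG, and 8.56% of 32851 RefSeq windows of this length held at least as many. The Plagl1 window held 19 CG (19.7% of windows held as many), and the Meg3 window held 10 (37.8%). CG occurred in 92.1% of all windows, with a median of 6. These letters describe the reference sequence and carry no information on methylation in the samples.

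Levels are linear intensities, 1 per probe set and array. Mbd2 itself measured 41.4, 55.7 and 66.0 in MBD2-/- T-ALL cells, against 957, 742 and 762 in MBD2+/+ T-ALL cells, and 67.6, 84.3 and 64.4 in MBD2-/- thymocytes, against 1372, 993 and 1043 in MBD2+/+ thymocytes. The deletion labels held on all 12 arrays. Array medians lay between 36.5 and 39.3, and control probe sets without a target reached 35.3, so lower values are called here the range of the no-target controls. Differences are on the log2(intensity + 16) scale, which understates those of dim probe sets, and were tested with limma over 28372 probe sets, with a threshold of 0.05 on the p adjusted by Benjamini-Hochberg. The arrays split into 5 with signal for an added poly-A control transcript (752 to 3524) and 7 without it (4.25 to 6.26), with Gapdh 3' to 5' ratios of 0.964 to 1.14 and 1.12 to 3.68. Replicate 1 of MBD2-/- T-ALL, replicates 1 and 2 of MBD2+/+ T-ALL and replicates 1 and 2 of MBD2+/+ DP thymocytes had the signal. Xist averaged 36.5 ± 4.36 in MBD2-/- T-ALL cells and 4193 ± 543 in MBD2+/+ T-ALL cells, and the Y-linked Eif2s3y 519 ± 51.5 and 7.31 ± 0.290 (SD, n = 3 each), against Xist of 39.7 ± 3.14 and Eif2s3y of 262 ± 111 in MBD2-/- thymocytes and 35.4 ± 9.07 and 395 ± 167 in MBD2+/+ thymocytes. The sex of the cells therefore cannot be told apart from genotype between the leukaemias, from cell type between MBD2+/+ T-ALL cells and MBD2+/+ thymocytes, or from the difference of the genotype effects. The 9 measured imprinted genes are autosomal, with Impact on chromosome 18. Their distance from the deleted Mbd2 gene was not examined, and the labels give no strain. The 11 measured T-cell markers summed to 12918 to 16995 in MBD2-/- T-ALL cells, 23258 to 29199 in MBD2+/+ T-ALL cells, 45631 to 60861 in MBD2-/- thymocytes and 47898 to 63140 in MBD2+/+ thymocytes, with Rag2 in the range of the no-target controls in both leukaemia groups and Rag1 there in MBD2-/- T-ALL cells. The 12 stroma markers summed to 424 to 435, 342 to 436, 399 to 425 and 402 to 526 in the same order of groups. The 8 myeloid markers summed to 255 to 709, 873 to 1726, 239 to 446 and 210.1 to 553, and the 9 stem cell markers to 832 to 1619, 399 to 453, 1647 to 1808 and 1505 to 1824. The 6 B-cell markers summed to 842 to 1106, 2040.5 to 2698, 6504 to 6905 and 6197 to 7664, and the 7 erythroid markers to 2446 to 3703, 2655 to 3380, 998 to 1101 and 798 to 1302. The 7 thymic epithelium markers summed to 392 to 638, 232 to 297, 266 to 319 and 271 to 296. Single genes carried several of these sums, such as Ighm for the B-cell list (875 in MBD2-/- T-ALL cells, 2367 in MBD2+/+ T-ALL cells). In the stem cell list Kit averaged 801 and 29.8, and Slamf1 150 and 263, in the same order. In MBD2-/- and MBD2+/+ thymocytes Slamf1 averaged 1533 and 1506, and Kit 30.6 and 29.5. Of 7 tested stem cell markers, limma called 2 higher and 1 lower in MBD2-/- T-ALL cells, where 14.9% of all genes were called. In the myeloid list, S100a8 averaged 149 and 538, S100a9 140 and 461, Lyz2 31.3 and 55.4, and Csf1r 68.8 and 78.3 in MBD2-/- and MBD2+/+ T-ALL cells. The B-cell gene Cd79b averaged 47.0 and 24.4. The erythroid sums came mostly from Tfrc, at 2639 in MBD2-/- T-ALL cells and 2677 in MBD2+/+ T-ALL cells. Gata1 averaged 138 and 37.0, Klf1 99.4 and 56.5, Epor 63.1 and 110, Alas2 27.4 and 54.5, and Slc4a1 25.5 and 106 in the same order. Hba-a1 averaged 13.8 and 15.6. Limma called 1 of the 7 erythroid markers higher and 3 lower in MBD2-/- T-ALL cells, where 14.9% of all genes were called. Among the other myeloid and B-cell markers, Ms4a1, Pax5, Itgam, Cd14 and Elane averaged in the range of the no-target controls in both leukaemia groups. The part of these markers in the differences below was not tested.

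Some of the imprinted genes gave no signal above the controls in any group. Igf2 (2 probe sets) and Grb10 (3) stayed in the range of the no-target controls on all 12 arrays, as did the only single-gene probe set of Snrpn, whose probe sets shared with Snurf include bright ones, 4 of 5 of Peg3, 2 of 3 of Plagl1 and 6 of 11 of Meg3. Igf2r, Cdkn1c and Impact were above that range on all 12 arrays with every probe set. Of the 31 probe sets, 23 passed the filter on low values (3 or more arrays above that array's 25th percentile), and the counts below cover those 23. No level is set against that of another probe set, since probes differ in their response.

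**Figure D1:**
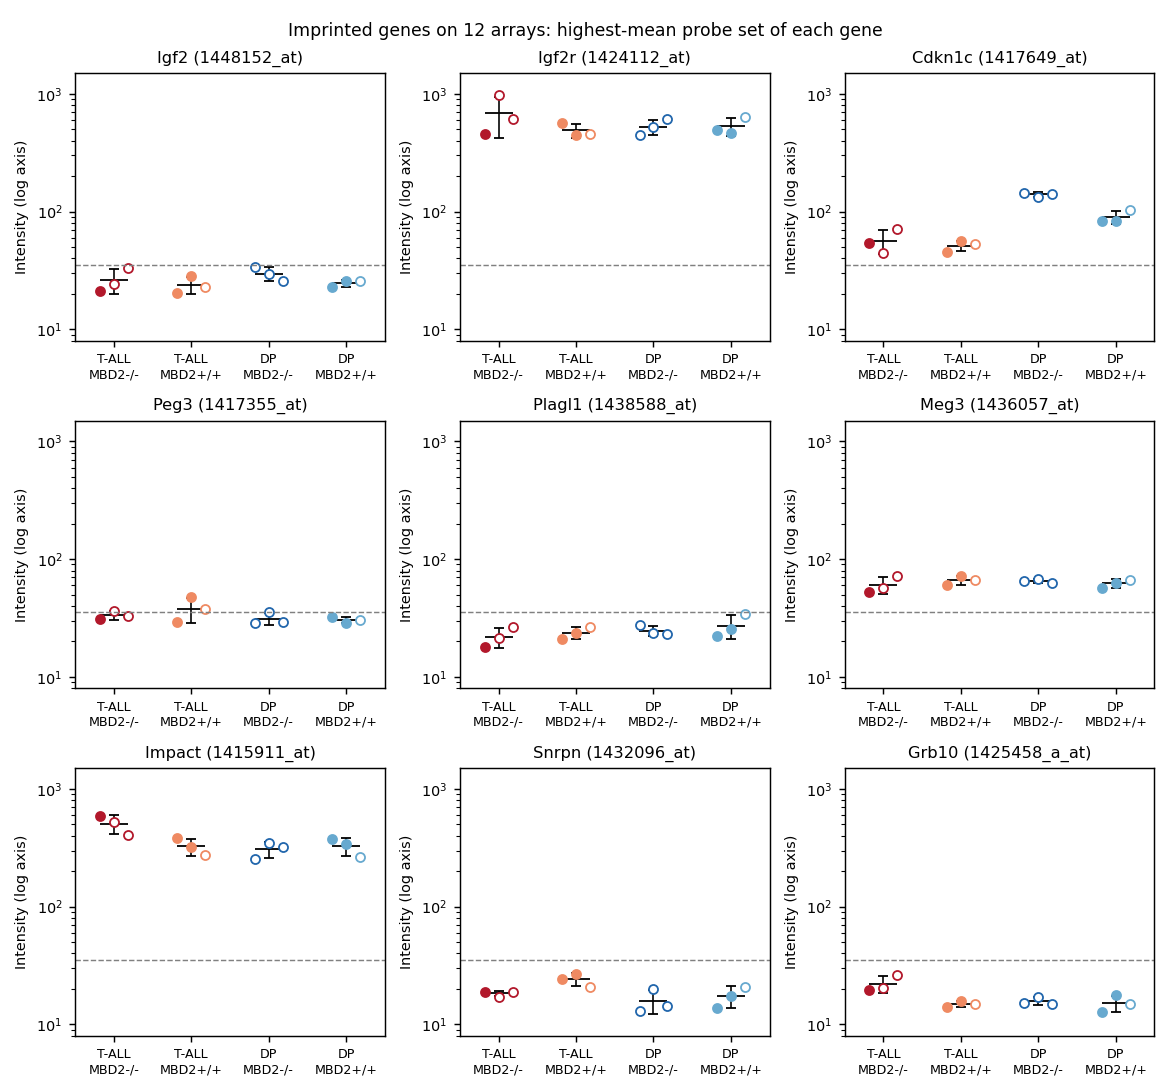
Intensity (log axis) of the highest-mean probe set of each imprinted gene on 12 arrays; points are arrays, filled where the poly-A control gave signal, bars are mean ± SD of 3 arrays, and the dashed line is the highest no-target control (35.3). Igf2r, Cdkn1c, Meg3 and Impact lie above the line on all 12 arrays, and only Cdkn1c shows both leukaemia groups clear of both thymocyte groups.

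Loss of MBD2 changed none of these probe sets past the threshold in leukaemia cells. In MBD2-/- against MBD2+/+ T-ALL cells, 0 of 23 were called by limma, where 12.9% of all tested probe sets were. At an unadjusted p under 0.05 there were 3 (Impact, Grb10 and Peg3), against 7471 of all 28372 tested probe sets. The lowest limma adjusted p of the 23 was 0.0739. The groups did not overlap for 5 of the 23, against 31.2% of all probe sets. The median log2 difference was -0.08, with single values of -0.27 to 0.61, beside a median of -0.05 over all probe sets. With the replicate number as a block, limma called 1 of the 23 (Impact) and 6026 probe sets in all, against 3660 without it. Without MBD2+/+ T-ALL replicate 1 or 2 the calls over all probe sets were 2337 or 1863. Fewer cells of a type and less RNA per cell cannot be told apart in these bulk samples.

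Impact, which encodes a protein that holds back the kinase GCN2 of the amino acid response, had the largest difference. Its probe set 1415911_at measured 594, 521 and 408 in MBD2-/- T-ALL cells, against 381, 321 and 274 in MBD2+/+ T-ALL cells. Every MBD2-/- leukaemia array was higher than every MBD2+/+ one. The log2 difference was 0.61 (SE 0.18, 95% interval 0.19 to 1.04), with a limma adjusted p of 0.0739. Blocking on the replicate number gave a limma adjusted p of 0.00919. The labels do not pair the arrays, and this pairing rests on correlations in these same data. Among the arrays with poly-A signal (1 MBD2-/- and 2 MBD2+/+) the difference was 0.74, and among those without it (2 and 1) it was 0.72, each a value from a group of 1 array that has no spread of its own. Leaving out MBD2-/- T-ALL replicate 3 gave 0.76 (adjusted p = 0.0390), while leaving out each of the other arrays gave adjusted p of 0.0840 to 0.206. In each group the lowest array of 1415911_at was the one with the highest Gapdh 3' to 5' ratio. These arrays measured 408 and 274 in MBD2-/- and MBD2+/+ T-ALL cells, and 254 and 265 in MBD2-/- and MBD2+/+ thymocytes. With the log2 of that ratio as a covariate, chosen after seeing the data, the leukaemia difference was 0.73 (limma adjusted p = 0.00846). The part of the ratio in these values was not tested.

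The other Impact probe sets gave different values. Probe set 1446750_at measured 245, 192 and 612 in MBD2-/- T-ALL cells, against 236, 207 and 356 in MBD2+/+ T-ALL cells. The groups overlapped, with a log2 difference of 0.24 (95% interval -0.77 to 1.24, adjusted p = 0.792). In each group its highest array was the one with the highest Gapdh 3' to 5' ratio, including 337 in MBD2-/- thymocytes and 346 in MBD2+/+ thymocytes. With the log2 of that ratio as a covariate, chosen after seeing the data, the difference between the leukaemia genotypes was 3e-04 (limma adjusted p = 0.9997). Whether the ratio caused the high values was not tested. Probe set 1446751_s_at measured 64.8, 55.3 and 46.3 in MBD2-/- T-ALL cells, against 85.5, 59.6 and 65.1 in MBD2+/+ T-ALL cells. Its log2 difference was -0.27 (95% interval -0.64 to 0.11, adjusted p = 0.350), opposite in sign to that of 1415911_at.

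**Figure D2:**
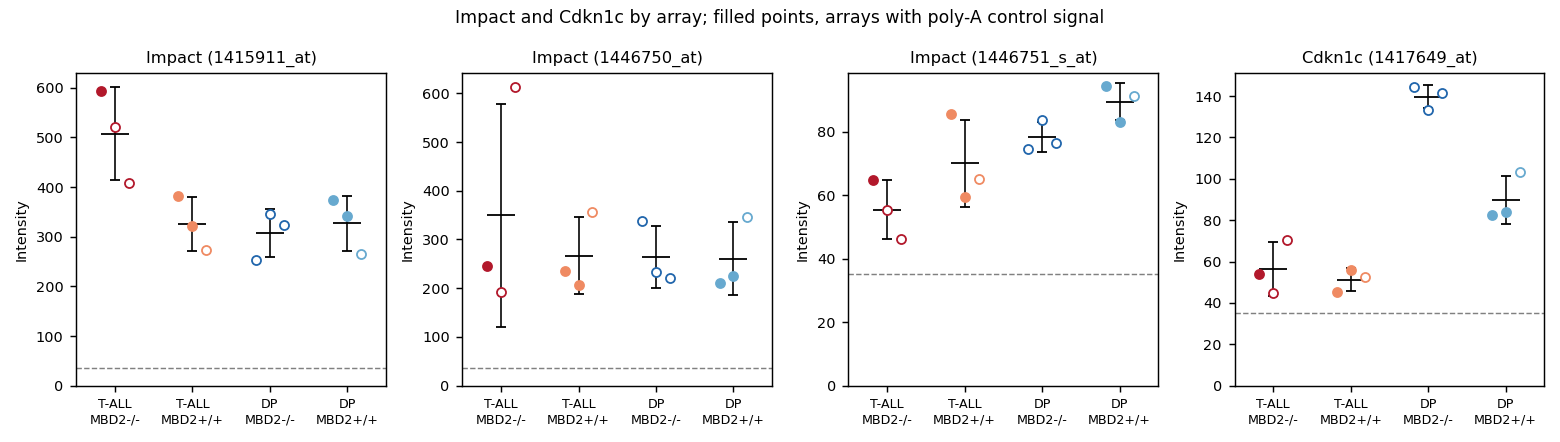
Intensity on 12 arrays of the 3 Impact probe sets and of Cdkn1c; points are arrays, filled where the poly-A control gave signal, and bars are mean ± SD of 3 arrays. Impact 1415911_at is highest in MBD2-/- T-ALL cells (594, 521 and 408), 1446750_at has single high arrays up to 612, and Cdkn1c is highest in MBD2-/- thymocytes (133 to 145).

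The growth genes gave no called difference between the leukaemia genotypes. Igf2r, the mannose 6-phosphate receptor that carries IGF2 to lysosomes, measured 460, 977 and 614 on 1424112_at in MBD2-/- T-ALL cells, against 567, 447 and 453 in MBD2+/+ T-ALL cells. The groups overlapped, with 1 high MBD2-/- array (log2 0.41, 95% interval -0.23 to 1.05, adjusted p = 0.403). On 1424111_at Igf2r measured 298, 325 and 299 in MBD2-/- T-ALL cells, against 280, 282 and 307 in MBD2+/+ T-ALL cells, an overlap again (log2 0.08, 95% interval -0.15 to 0.31). A probe set shared by Igf2r and Airn, the non-coding transcript that runs antisense to Igf2r, read 35.6 to 60.6 over all arrays.

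Igf2 lay between 20.5 and 33.5 on its brighter probe set over the 12 arrays, with a log2 difference of 0.08 between the leukaemia genotypes. Grb10, the receptor adaptor, measured 19.6, 20.2 and 26.4 on 1425458_a_at in MBD2-/- T-ALL cells, against 14.1, 15.7 and 15.0 in MBD2+/+ T-ALL cells. The arrays did not overlap, yet all lay in the range of the no-target controls (log2 0.29, SE 0.11, adjusted p = 0.135). H19, the non-coding RNA next to Igf2, has no probe set of its own on the array, and the probe set it shares with Mir675 read 7.23 to 14.2. Any change of Igf2, Grb10 or H19 below the level of the controls was not detectable.

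Cdkn1c, the cyclin-dependent kinase inhibitor p57, measured 54.2, 44.7 and 70.6 in MBD2-/- T-ALL cells, against 45.3, 55.8 and 52.7 in MBD2+/+ T-ALL cells. The arrays were interleaved, with a log2 difference of 0.10 (95% interval -0.27 to 0.46, adjusted p = 0.764). Plagl1, a zinc-finger factor that slows growth, measured 8.52, 11.1 and 12.7 on 1426208_x_at in MBD2-/- T-ALL cells, against 8.44, 9.44 and 13.2 in MBD2+/+ T-ALL cells. Both groups lay in the range of the no-target controls. Its probe set 1438588_at lay between 17.8 and 34.3 over the 12 arrays.

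Peg3, a zinc-finger gene read from the paternal copy, measured 14.0, 13.7 and 14.5 on 1417356_at in MBD2-/- T-ALL cells, against 17.6, 19.4 and 22.7 in MBD2+/+ T-ALL cells. The arrays did not overlap, in the range of the no-target controls (log2 -0.25, SE 0.10, adjusted p = 0.158). Its brighter probe set 1417355_at measured 30.7, 36.0 and 33.1 in MBD2-/- T-ALL cells, against 29.2, 47.3 and 37.5 in MBD2+/+ T-ALL cells, an overlap. Meg3, a maternally read long non-coding RNA, lay between 52.9 and 71.4 on 1436057_at over all 12 arrays. That is a 1.35-fold span between the lowest and the highest array, with a log2 difference of -0.11 between the leukaemia genotypes (95% interval -0.40 to 0.19). The 9 tested Meg3 probe sets gave log2 differences of -0.13 to -0.02.

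Snrpn, which encodes a small nuclear ribonucleoprotein of the splicing machinery, measured 18.98, 17.2 and 18.8 on its only single-gene probe set in MBD2-/- T-ALL cells, against 24.3, 27.0 and 20.9 in MBD2+/+ T-ALL cells (log2 -0.22, adjusted p = 0.223). The bright signal came from probe sets that Snrpn shares with Snurf, the reading frame upstream on the same transcript. The brightest, 1415895_at, averaged 970 ± 153 in MBD2-/- T-ALL cells, 1109 ± 251 in MBD2+/+ T-ALL cells, 1223 ± 272 in MBD2-/- thymocytes and 1084 ± 108 in MBD2+/+ thymocytes (SD, n = 3 each). The other bright one, 1415896_x_at, averaged 644 ± 86.7 in MBD2-/- T-ALL cells and 707 ± 188 in MBD2+/+ T-ALL cells. A dimmer one, 1435716_x_at, averaged 26.2 ± 3.75 in MBD2-/- T-ALL cells, in the range of the no-target controls, and 47.6 ± 10.7 in MBD2+/+ T-ALL cells. Shared probe sets were not tested.

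**Figure D3:**
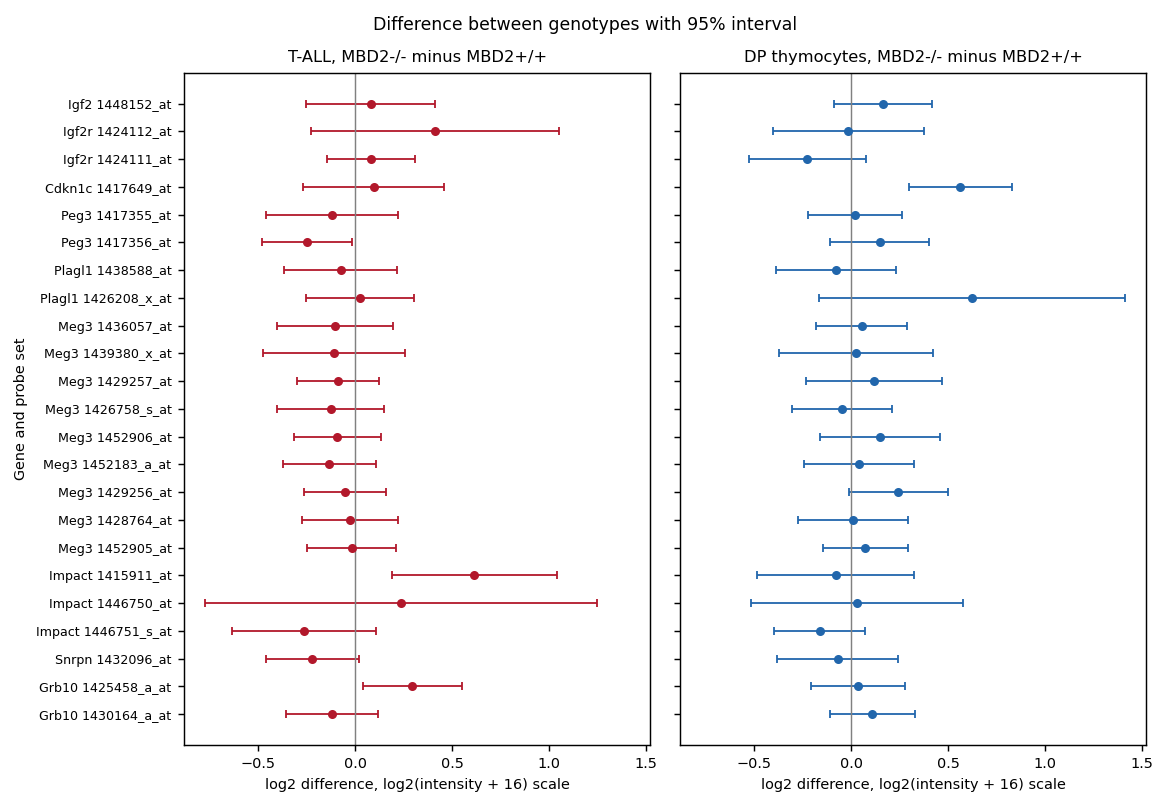
Log2 differences with 95% limma intervals for the 23 tested probe sets, MBD2-/- minus MBD2+/+, in T-ALL cells and in DP thymocytes. All 23 have adjusted p above 0.05 in both cell types; Impact 1415911_at (0.61) in leukaemia and Cdkn1c (0.56) in thymocytes have intervals clear of 0 with levels above the no-target controls.

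In normal thymocytes loss of MBD2 also changed none of the tested probe sets past the threshold. Of the 23, limma called 0, where it called 0.0106% of all tested probe sets (3, which include Mbd2). At an unadjusted p under 0.05 there was 1, Cdkn1c, against 1252 of all 28372 tested probe sets. The groups did not overlap for 2 of the 23, against 8.42% of all probe sets. The median log2 difference was 0.03, with single values of -0.23 to 0.62, beside a median of -0.02 over all probe sets.

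Cdkn1c measured 145, 133 and 141 in MBD2-/- thymocytes, against 82.8, 83.7 and 103 in MBD2+/+ thymocytes. Every MBD2-/- thymocyte array was higher than every MBD2+/+ one, with means of 140 ± 5.75 and 89.9 ± 11.6 (SD, n = 3 each). The log2 difference was 0.56 (SE 0.11, 95% interval 0.29 to 0.83), with a limma adjusted p of 0.759 and an unadjusted p of 0.00169. All 3 MBD2-/- thymocyte arrays lacked the poly-A signal, as did the highest of the MBD2+/+ arrays (103). Within the arrays that lacked it, the difference was 0.38, and it rests on that 1 MBD2+/+ array. The difference between the Cdkn1c effects, leukaemia minus thymocytes, was -0.47 (SE 0.19, adjusted p = 0.184).

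Plagl1 had 1 bright array on 1426208_x_at. It measured 83.4, 27.5 and 30.6 in MBD2-/- thymocytes, against 16.7, 19.3 and 32.0 in MBD2+/+ thymocytes. The groups overlapped (adjusted p = 0.983), and all arrays but the first, the whole MBD2+/+ group included, lay in the range of the no-target controls. Impact 1415911_at measured 254, 346 and 323 in MBD2-/- thymocytes, against 375, 341 and 265 in MBD2+/+ thymocytes, also an overlap (log2 -0.08, 95% interval -0.49 to 0.32). Igf2r 1424112_at measured 448, 523 and 608 in MBD2-/- thymocytes, against 493, 469 and 637 in MBD2+/+ thymocytes (log2 -0.02, 95% interval -0.41 to 0.37). Igf2r 1424111_at measured 228, 263 and 281 in MBD2-/- thymocytes, against 343, 277 and 291 in MBD2+/+ thymocytes (log2 -0.23, 95% interval -0.53 to 0.07).

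The difference between the genotype effects, leukaemia minus thymocytes, passed the limma threshold for 0 of the 23 probe sets, where it did for 9.63% of all tested probe sets. At an unadjusted p under 0.05 there were 4: Impact 1415911_at (0.69, SE 0.26, adjusted p = 0.141), Cdkn1c, Peg3 1417356_at (-0.40, adjusted p = 0.0968) and Meg3 1429256_at (-0.29, adjusted p = 0.213). Over all 28372 tested probe sets, 5885 had such an unadjusted p. The Peg3 and Meg3 values lay in the range of the no-target controls.

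Between leukaemia and thymocytes Cdkn1c was lower in both genotypes. In MBD2+/+ T-ALL against MBD2+/+ DP thymocytes, 1 of 23 probe sets was called, where 29.7% of all tested probe sets were. This was Cdkn1c, which fell to 51.3 ± 5.42 in MBD2+/+ T-ALL cells, against 89.9 ± 11.6 in MBD2+/+ thymocytes (log2 -0.65, SE 0.12, adjusted p = 0.00781). The sex markers given above differ between these groups, and their part was not tested. With the replicate number as a block, a pairing that rests on correlations in these same data, 2 were called. Plagl1 1426208_x_at joined with an adjusted p of 0.00881 (0.0534 without the block), though both groups lay in the range of the no-target controls.

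In MBD2-/- T-ALL against MBD2-/- DP thymocytes, 3 of 23 probe sets were called, where 27.3% of all tested probe sets were. Cdkn1c fell to 56.5 ± 13.1 in MBD2-/- T-ALL cells, against 140 ± 5.75 in MBD2-/- thymocytes (log2 -1.12, SE 0.15, adjusted p = 0.00160), without overlap. Cdkn1c stayed past the threshold in both cell type comparisons under every alternative run, with adjusted p up to 0.0283. Impact 1415911_at rose to 508 ± 93.5 in MBD2-/- T-ALL cells, against 308 ± 48.2 in MBD2-/- thymocytes (log2 0.69, SE 0.18, adjusted p = 0.0264). Its probe set 1446751_s_at averaged 55.5 ± 9.23 in MBD2-/- T-ALL cells and 78.3 ± 4.73 in MBD2-/- thymocytes, the opposite direction (log2 -0.41, adjusted p = 0.0513). Plagl1 1426208_x_at averaged 10.8 ± 2.11 in MBD2-/- T-ALL cells, within the range of the no-target controls, and 47.2 ± 31.4 in MBD2-/- thymocytes, where 1 of 3 arrays (83.4) was above it. It was at least 1.34-fold lower in the leukaemia cells (adjusted p = 0.0327), a bound that rests on that 1 array, since the other thymocyte arrays (27.5 and 30.6) lay in the range of the controls. The Impact and Plagl1 calls were both lost without MBD2-/- T-ALL replicate 1 (adjusted p = 0.0758 and 0.0892) or replicate 2 (0.0716 and 0.0750). Plagl1 was also lost without MBD2-/- T-ALL replicate 3 (0.0533), and Impact without MBD2-/- DP replicate 1 or 3 (0.0795 and 0.0585).

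A wider list of imprinted genes held 63 further genes, of which 50 had a single-gene probe set and 42 were tested, each by its brightest probe set. In MBD2-/- against MBD2+/+ T-ALL cells 5 of the 42 rose and 0 fell, a share below the 14.9% of 15420 genes called in the same way. The median log2 difference of the 42 was -0.02, beside -0.06 over all genes. In thymocytes 0 of the 42 were called by limma and 2 had an unadjusted p under 0.05, against 1252 of all 28372 probe sets.

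Sfmbt2, a Polycomb-group gene read from the paternal copy in the placenta, measured 262, 258 and 358 in MBD2-/- T-ALL cells, against 51.7, 57.1 and 54.8 in MBD2+/+ T-ALL cells. All MBD2-/- arrays were higher (log2 2.12, SE 0.14, adjusted p = 0.000263). In thymocytes Sfmbt2 averaged 86.3 ± 10.5 with MBD2 deleted and 116 ± 15.7 with wild-type MBD2, and the difference between the effects was 2.48 (SE 0.20, adjusted p = 1.38e-05). Its other tested probe set gave a log2 difference of 0.38 in leukaemia and was not called.

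Atp10a, a phospholipid flippase gene next to Ube3a, averaged 241 ± 41.7 in MBD2-/- T-ALL cells and 117 ± 22.1 in MBD2+/+ T-ALL cells (log2 0.95, adjusted p = 0.0147), and 1 of its 2 other tested probe sets rose. Ampd3, an AMP deaminase gene, averaged 76.6 ± 10.4 in MBD2-/- T-ALL cells and 44.4 ± 2.78 in MBD2+/+ T-ALL cells (log2 0.61, adjusted p = 0.0179). Cd81, a tetraspanin gene in the cluster that holds Cdkn1c, averaged 1626 ± 103 in MBD2-/- T-ALL cells and 1065 ± 136 in MBD2+/+ T-ALL cells (log2 0.61, adjusted p = 0.0237). Gnas, the stimulatory G protein subunit, averaged 5202 ± 263 in MBD2-/- T-ALL cells and 3890 ± 311 in MBD2+/+ T-ALL cells (log2 0.42, adjusted p = 0.0463), while its 3 other tested probe sets were not called. Leaving out single arrays ended the call of Atp10a without MBD2+/+ T-ALL replicate 1 or 2 (adjusted p = 0.0549 and 0.0588), of Ampd3 without MBD2-/- replicates 1 or 2 or MBD2+/+ replicates 2 or 3 (0.0527 to 0.0819), of Cd81 without MBD2-/- replicates 1 or 3 or MBD2+/+ replicates 1 or 2 (0.0609 to 0.0795), and of Gnas without any 1 of the 6 (0.0838 to 0.133).

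**Figure D4:**
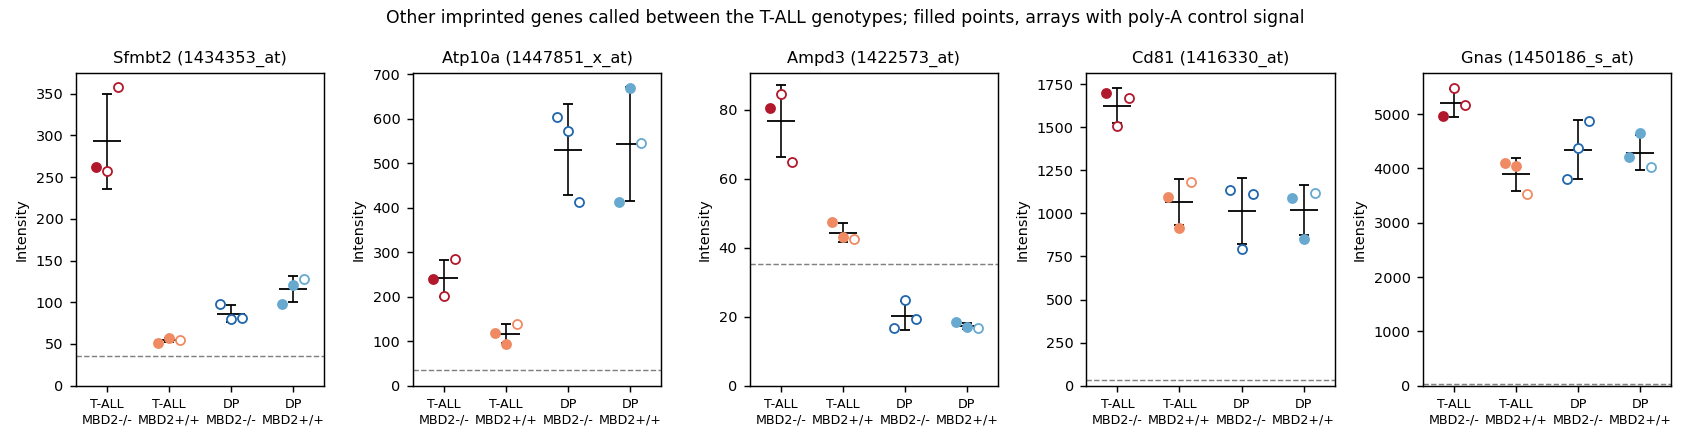
Intensity on 12 arrays of the 5 other imprinted genes called between the T-ALL genotypes; points are arrays, filled where the poly-A control gave signal, and bars are mean ± SD of 3 arrays. In each panel the 3 MBD2-/- T-ALL arrays lie above the 3 MBD2+/+ T-ALL arrays, by most for Sfmbt2 (258 to 358 against 51.7 to 57.1).

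Between the leukaemia genotypes, 1 of 12 tested genes in the cluster of Igf2 and Cdkn1c was called (Cd81) and 1 of 5 in the Snrpn cluster (Atp10a), against 14.9% of all genes. In the clusters of Igf2r (3 tested), Peg3 (2), Meg3 (4) and Grb10 (3) limma called 0, with 2 Grb10 cluster genes at an unadjusted p under 0.05. Over all genes, 4427 of 15420 had such a p. Dlk1 and Rian, beside Meg3, read 12.9 to 17.2 and 16.2 to 30.6 over all arrays, and Usp29 and Zim1, beside Peg3, 20.9 to 29.1 and 8.74 to 12.1, all in the range of the no-target controls. Kcnq1ot1, the non-coding RNA of the Cdkn1c cluster, averaged 384 ± 87.2 in MBD2-/- T-ALL cells and 508 ± 85.6 in MBD2+/+ T-ALL cells and was not called. Airn averaged 209 ± 66.4 in MBD2-/- T-ALL cells and 182 ± 28.6 in MBD2+/+ T-ALL cells, also not called.

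Between leukaemia and thymocytes, 5 of the 42 further genes were called in MBD2+/+ cells (3 higher, 2 lower), against 32.3% of all genes, and 9 in MBD2-/- cells (6 higher, 3 lower), against 28.6%. Sfmbt2 was lower in MBD2+/+ T-ALL cells than in MBD2+/+ thymocytes (log2 -0.90, adjusted p = 0.00200) and higher in MBD2-/- T-ALL cells than in MBD2-/- thymocytes (log2 1.58, adjusted p = 0.000485). Airn fell to 209 ± 66.4 in MBD2-/- T-ALL cells, against 372 ± 63.6 in MBD2-/- thymocytes (log2 -0.82, adjusted p = 0.0434). These comparisons share their groups with those between the genotypes.

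Genes that write, read or keep the methylation of imprints changed in MBD2-/- leukaemia for 4 of 24 tested, near the 14.9% of all genes called: Dnmt3a, Dnmt3b and Tet2 rose, and Mbd2, the deleted gene itself, fell. Dnmt3b, a de novo DNA methyltransferase, averaged 1622 ± 228 in MBD2-/- T-ALL cells and 430 ± 22.8 in MBD2+/+ T-ALL cells (log2 1.87, adjusted p = 0.000249). Tet2, which oxidises 5-methylcytosine, averaged 343 ± 31.8 in MBD2-/- T-ALL cells and 92.3 ± 23.7 in MBD2+/+ T-ALL cells (log2 1.75, adjusted p = 0.00134). Dnmt3a averaged 1488 ± 351 in MBD2-/- T-ALL cells and 711 ± 207 in MBD2+/+ T-ALL cells (log2 1.06, adjusted p = 0.0495), while 3 of its 4 other tested probe sets were not called (the 4 at log2 0.46 to 0.96). Its call was lost without any single leukaemia array other than MBD2-/- replicate 1 (adjusted p = 0.0705 to 0.141). In thymocytes Mbd2 alone of the 24 was called.

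Of 16 tested genes of insulin-like growth factor signalling, 4 rose and 1 fell in MBD2-/- T-ALL cells, where 14.9% of all genes were called. Igfbp4, a secreted binding protein of the growth factors, averaged 5593 ± 436 in MBD2-/- T-ALL cells and 648 ± 91.6 in MBD2+/+ T-ALL cells (log2 3.09, adjusted p = 3.78e-05), and 4 of its 5 other tested probe sets rose. Insr, the insulin receptor, averaged 325 ± 16.2 in MBD2-/- T-ALL cells and 111 ± 4.83 in MBD2+/+ T-ALL cells (log2 1.42, adjusted p = 0.000232), while its 2 other tested probe sets were not called. Igf2bp3, an RNA-binding protein that binds Igf2 transcripts, averaged 1295 ± 388 in MBD2-/- T-ALL cells and 330 ± 12.1 in MBD2+/+ T-ALL cells (log2 1.88, adjusted p = 0.00181), and 3 of its 5 other tested probe sets rose. Igf1r, the receptor for IGF1 and IGF2, averaged 367 ± 68.6 in MBD2-/- T-ALL cells and 200 ± 25.5 in MBD2+/+ T-ALL cells (log2 0.82, adjusted p = 0.0228), while 3 of its 4 other tested probe sets were not called (the 4 at log2 -0.20 to 0.71). The Igf1r call was lost without any single leukaemia array other than MBD2-/- replicate 2 (adjusted p = 0.0539 to 0.0820). Irs2, an adaptor of both receptors, fell to 55.9 ± 1.15 in MBD2-/- T-ALL cells, against 133 ± 12.4 in MBD2+/+ T-ALL cells (log2 -1.05, adjusted p = 0.00106). In thymocytes 0 of the 16 were called, with 1 at an unadjusted p under 0.05, against 1252 of all 28372 probe sets.

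Cdkn1c belongs to the cyclin-dependent kinase inhibitors, of which 7 were tested and 2 rose in MBD2-/- T-ALL cells, where 14.9% of all genes were called. Cdkn1a, the p53 target p21, averaged 297 ± 89.8 in MBD2-/- T-ALL cells and 138 ± 11.1 in MBD2+/+ T-ALL cells (log2 0.99, adjusted p = 0.0239), while its other tested probe set was not called (log2 0.30). Cdkn2a averaged 57.3 ± 10.7 in MBD2-/- T-ALL cells and 29.7 ± 8.12 in MBD2+/+ T-ALL cells, the second in the range of the no-target controls on 2 of its arrays (log2 0.69, adjusted p = 0.0468). The Cdkn1a call was lost without MBD2-/- replicate 2 or MBD2+/+ replicate 1 or 2 (adjusted p = 0.0631 to 0.103), and that of Cdkn2a without any single leukaemia array other than MBD2+/+ replicate 3 (0.0717 to 0.126). In thymocytes 0 of the 7 were called, with Cdkn1c the 1 at an unadjusted p under 0.05, against 1252 of all 28372 probe sets.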

How the data were processed

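Gene expression was measured on 12 mouse Affymetrix 430 2.0 arrays, 3 per group, grouped by the labelled cell type and genotype. Per the labels, biotin cRNA was made from 7 µg of total RNA. The authors deposited 1 linear intensity per probe set and array; how they summarized and normalized it is not given in the sources used. Log2 array medians of 5.71 to 5.79 were left as they were. Of 45101 probe sets, 34945 had 1 gene in GEO's platform annotation, 932 had several, 9160 had none and 64 were controls.

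Values were taken as log2(intensity + 16) and compared by lmFit and eBayes of limma 3.58.1 (R 4.3.3) on 28372 single-gene probe sets, those with 3 or more arrays above that array's 25th percentile. Each comparison of 2 groups had its own fit, and the difference of effects used all 12 arrays. P-values were adjusted over all tested probe sets (Benjamini-Hochberg, 0.05). The fit was checked on simulated data. There limma called 62% of log2 changes of 1 in the leukaemia genotype comparison and 52% in the thymocyte one. For log2 changes of 2 it called 88% and 89%. A probe set that was not called need therefore not be unchanged. Depth does not apply to arrays, and their number limits the precision. Equal replicate numbers correlated after group means were removed: r was 0.424, 0.224 and 0.587 between the leukaemia genotypes and 0.416, 0.451 and 0.585 between wild-type leukaemia and thymocytes, where they were taken as pairs. Values between the thymocyte genotypes (-0.51, 0.096 and -0.484) and between MBD2-/- leukaemia and thymocytes (-0.395, 0.107 and -0.462) did not pair them. The labels pair no arrays. The Gapdh 3' to 5' ratio rose from replicate 1 to 3 in both T-ALL groups and in MBD2+/+ thymocytes, but fell in MBD2-/- thymocytes (3.33, 2.10 and 1.12). The part of that ratio in these correlations was not tested. Other imprinted genes, regulators and growth lists were represented by the brightest probe set, and up to 10 (imprinted) or 4 (other lists) called in leukaemia with the smallest p are named. Igf1r, the further genes of the clusters and the single marker genes were chosen after their values were seen. The members and lists were chosen with earlier results of these data known. Promoters came from RefSeq. Figures used Python 3.11.15 and matplotlib 3.10.9. Alternatives covered normalization, filters, added constant, probe set choice, variance model, array weights, blocks, the poly-A set and leaving out arrays; the log2 Gapdh ratio as a covariate was chosen after seeing the data.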

Additional observations from a re-analysis of the deposited data

How the results depend on the processing

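Over 2639 recomputed values for single probe sets, 2520 kept their side of the threshold, 81 lost a call, 38 gained one and 0 called values changed sign, while 125 uncalled values did. For the imprinted genes in MBD2-/- against MBD2+/+ T-ALL cells, the 0 calls became 1 with quantile normalization, array weights, the replicate block, all 12 arrays, the poly-A set as a block, arrays with poly-A signal or the Gapdh ratio as a covariate (Impact 1415911_at each time), and 2 with trend and robust (Peg3 and Grb10). The 3660 calls over all probe sets became 6026 with the replicate block, a pairing that rests on correlations in these same data. Leaving out 1 array gave 0 to 1 imprinted calls (1 without MBD2-/- replicate 3) and 1863 to 3368 in all. In thymocytes the imprinted genes gave 0 under each alternative run. The 3 calls over all probe sets became 5 with trend and robust, 19 with array weights, 14 with all 12 arrays and 5 with the Gapdh ratio. They became 0 with the replicate block, the poly-A set as a block or arrays without poly-A signal (741, 2039 and 1802 at an unadjusted p under 0.05), and 0 to 2 without 1 array. For MBD2+/+ leukaemia against thymocytes, the 1 imprinted call became 2 with quantile normalization, trend and robust, the replicate block, a constant of 1, the poly-A block, arrays with poly-A signal or the Gapdh ratio, and 4 with array weights. Leaving out 1 array gave 1 to 2 imprinted calls and 5788 to 8580 in all. For MBD2-/- leukaemia against thymocytes, the 3 imprinted calls became 5 with trend and robust and 1 with the replicate block, and leaving out 1 array gave 1 to 3 and 5471 to 7644 in all. With 1 probe set per gene, which tests fewer probe sets, the calls over all fell to 5242 in MBD2+/+ and 4565 in MBD2-/- cells, against 8428 and 7733. For the difference of effects, the 0 imprinted calls became 1 with trend and robust or the Gapdh ratio and 3 with array weights. The 2733 calls in all became 4411 with array weights, 701 in arrays without poly-A signal and 4335 with the Gapdh ratio. Leaving out 1 array gave 0 to 1 imprinted calls and 2055 to 2923 in all. Other causes of these shifts were not tested. The equal numbers between the thymocyte genotypes and between MBD2-/- leukaemia and thymocytes are not shown to pair arrays, so their block is given here only.

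Centring on the 75th percentile moved the median difference of effects over all probe sets to -0.17, against -0.04, and the share of calls that were higher to 49.6%, against 64.9%. In the leukaemia comparison it moved that share to 46.8%, against 59.2%, and the median to -0.12, against -0.05. Within 1 kind of array the leukaemia and thymocyte genotype comparisons have a group of 1 array, taken to vary like the other. Arrays with poly-A signal could not be used alone for comparisons with MBD2-/- thymocytes, which have none, nor those without it for MBD2+/+ leukaemia against thymocytes, with 1 array each. Signals in the range of the no-target controls limit Igf2, Grb10, the single-gene probe set of Snrpn, most of Peg3 and Plagl1, and 6 of 11 probe sets of Meg3. The Gapdh covariate was chosen after seeing the data.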
